A study of Mus musculus with 70 samples.

Results

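The collagen genes of mouse dorsal root ganglia (DRGs) were followed through nerve injury in 9 inbred strains. They were taken as every array probe whose platform gene symbol has the form Col, a number, a and a number, which gave 59 of 25697 probes, for 37 of 16593 named genes. Of these genes, 32 had at least 1 probe above background often enough to be tested (a detection p-value under 0.05 on at least 3 arrays), among 11815 genes tested in all. The 32 comprise 11 fibrillar collagens, 6 basement membrane collagens and 15 others. The remaining 5 genes, Col6a6, Col9a3, Col10a1, Col13a1 and Col19a1, had no probe past that filter.

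DRGs hold the cell bodies of sensory neurons, and axotomy is the cutting of their axons. The injured samples are labelled AX5D, read here as 5 days after axotomy, and the uninjured ones NAIVE. The strains are labelled CAST, WSB, NZO, NOD, DBA, C57, C3H, AJ and 129, with no transgene or other agent named, and no label used here gives the animals' age. Each sample pooled total RNA from 6 DRGs of 3 mice and was hybridised to 1 Illumina array. The labels call the replicates biologically distinct. There were 35 AX5D and 35 NAIVE arrays, 4 in each of 16 groups and 3 in each of the 2 AJ groups.

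Collagens are the triple-helical proteins of the extracellular matrix. Each molecule is wound from alpha chains, which are made as procollagens, hydroxylated and folded in the endoplasmic reticulum, trimmed outside the cell and cross-linked. The fibrillar collagens form the banded fibres of connective tissue, including the endoneurium and epineurium of nerve, and type IV collagens form the mesh of basement membranes around Schwann cells, satellite glia and capillaries. Others decorate fibrils, form beaded filaments, span the plasma membrane or sit in basement membrane zones.

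Promoter windows are shown for 4 genes on which the results below turn: Col7a1, with the highest mean response, Col18a1, with the clearest difference in response between strains, and Col1a2 and Col3a1, chains of the main fibrillar collagens. The windows are the 250 bases before the annotated start in RefSeq (GRCm38.p6), chr9:108953336-108953585 on the plus strand, chr10:77166531-77166780 on the minus strand, chr6:4505368-4505617 on the plus strand and chr1:45311288-45311537 on the plus strand. None of the 4 lies inside an annotated gene. Each is written 5′ to 3′ along the gene's strand, and capitals mark the letters of 3 motifs on either strand, the CCAAT box, the GC box and the TATA box.
Col7a1: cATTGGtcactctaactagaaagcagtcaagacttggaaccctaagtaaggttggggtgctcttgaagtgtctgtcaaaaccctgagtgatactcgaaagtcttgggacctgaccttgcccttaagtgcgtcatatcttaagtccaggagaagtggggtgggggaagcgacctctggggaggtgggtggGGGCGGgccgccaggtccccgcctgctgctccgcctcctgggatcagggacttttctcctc
Col18a1: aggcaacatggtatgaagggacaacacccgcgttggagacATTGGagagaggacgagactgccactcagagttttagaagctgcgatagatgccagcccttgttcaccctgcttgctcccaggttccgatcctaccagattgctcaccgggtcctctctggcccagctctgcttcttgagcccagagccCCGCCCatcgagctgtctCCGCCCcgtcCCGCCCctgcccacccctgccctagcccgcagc
Col1a2: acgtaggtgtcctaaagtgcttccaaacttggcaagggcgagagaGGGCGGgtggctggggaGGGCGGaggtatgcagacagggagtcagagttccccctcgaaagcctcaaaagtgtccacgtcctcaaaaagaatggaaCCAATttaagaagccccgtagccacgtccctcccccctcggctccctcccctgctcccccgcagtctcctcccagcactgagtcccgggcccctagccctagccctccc
Col3a1: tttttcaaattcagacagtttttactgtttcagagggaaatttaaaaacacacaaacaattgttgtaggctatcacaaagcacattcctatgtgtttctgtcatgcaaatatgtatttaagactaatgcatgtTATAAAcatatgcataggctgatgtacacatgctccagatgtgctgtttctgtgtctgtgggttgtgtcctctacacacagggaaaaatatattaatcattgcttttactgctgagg
The Col7a1, Col18a1 and Col1a2 windows held the first and second motif and not the third, and the Col3a1 window held the third alone. Searched on both strands as CCAAT, the first stood in 12 of 29 windows of 26 collagen genes, against 33.8% of all 32817 windows. The GC box, searched as GGGCGG, stood in 18 of the 29 windows, against 32.7% of all windows. The TATA box, searched as TATAAA, stood in 3 of the 29, against 12.4%. An AP-1 motif, searched as TGAGTCA, stood in 1 of the 29 (Col6a1), against 4.46%. These are matches of letters and not measured binding.

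Levels below are background-corrected, quantile-normalised log2 intensities of 1 probe per gene, the probe with the highest mean. A response is the AX5D level minus the NAIVE level on that scale, with its standard error (SE), and adjusted p-values come from limma over all 11815 genes with a threshold of 0.05. Levels of different probes cannot be compared with each other. Raw intensities spanned 164 to 53947, and an array had 13147 to 14721 probes above background. In pooled tissue a lower level from fewer cells of a type and one from less RNA per cell cannot be told apart.

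As a mean over the 9 strains, 18 of the 32 collagen genes rose after axotomy, 3 fell and 11 did not pass the threshold. Among all genes tested, 28.1% rose and 33.6% fell. The median response of the 32 genes was 0.28, against -0.03 for all genes tested, and 0.14 against -0.01 without background correction. Fibrillar collagens rose in 7 of 11 cases, with 1 lower and a median response of 0.36. The basement membrane collagens split, with 2 higher, 1 lower and 3 not past the threshold of 6 (median response -0.01). The lower one, Col4a3, is among the 3 collagen genes that fell. It was above background on no AX5D array and on 6 NAIVE arrays, so the size of its fall was not measured. The other collagens rose in 9 of 15 cases, with 1 lower and a median response of 0.34. Of the 18 collagen genes above background on all 70 arrays, 16 rose, Col9a2 fell and Col23a1 did not pass the threshold, with a median response of 0.57 against -0.04 for the 7278 genes so detected. Among those 7278 genes, 32.0% rose and 39.9% fell. Of the 14 weaker genes, 2 rose (Col14a1 and Col27a1), 2 fell and 10 did not pass. The 5 genes without a kept probe enter none of these counts.

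**Figure D1:**
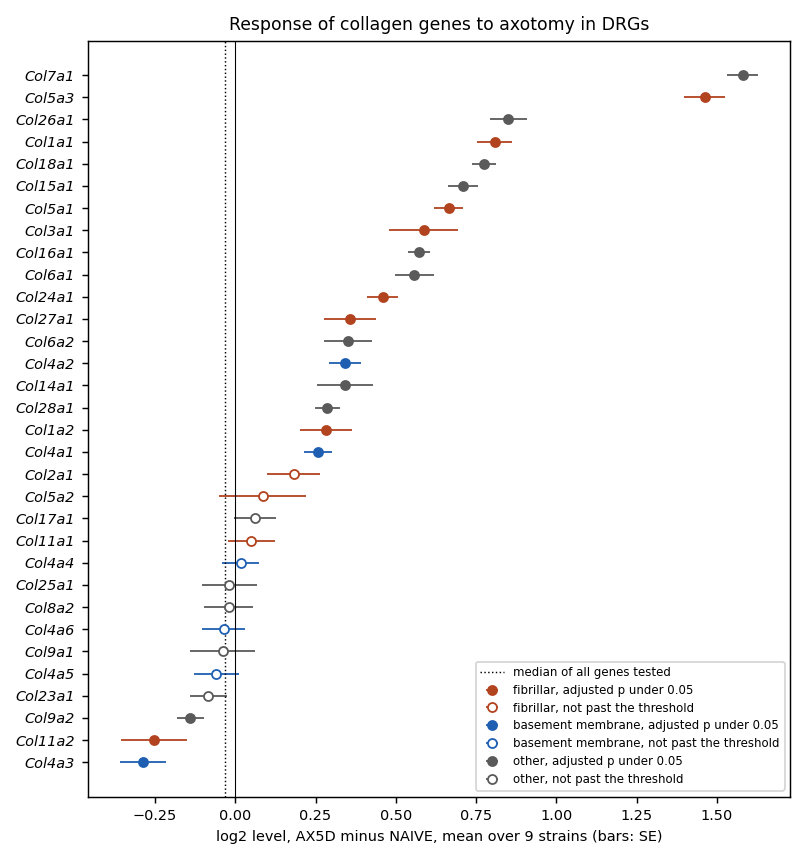
Response of the 32 collagen genes to axotomy, as log2 level in AX5D minus NAIVE averaged over 9 strains, with bars for the SE and colours for the class. Filled points passed the threshold; Col7a1 (1.58) and Col5a3 (1.46) stand to the right of the rest, whose highest is Col26a1 (0.85). Col4a3, drawn lowest, was not above background on any AX5D array, so its place is not measured.

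Col7a1 encodes the chain of type VII collagen, which forms anchoring fibrils beneath epithelial basement membranes. Its level on AX5D arrays was 8.63 at the lowest, 9.18 at the median and 9.82 at the highest, against 7.12, 7.66 and 7.95 on NAIVE arrays. The 35 AX5D arrays lay entirely above the 35 NAIVE arrays. The response was 1.58 (SE 0.05, 2.99-fold, adjusted p 3.71e-38), and it passed the threshold in each of the 9 strains, between 1.28 in AJ and 1.91 in CAST.

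Col5a3 encodes a chain of type V collagen, a minor fibrillar collagen that takes part in starting and sizing fibrils. Its level on AX5D arrays was 8.25 at the lowest, 8.90 at the median and 10.01 at the highest, against 6.41, 7.45 and 8.11 on NAIVE arrays, again without overlap. The response was 1.46 (SE 0.07, 2.76-fold, adjusted p 1.13e-29) and was called in all 9 strains, from 0.94 in NOD to 1.94 in 129. Col7a1 and Col5a3 were the 2 of 32 collagen genes whose treatments did not overlap over all arrays, against 2.12% of all genes tested. The F-test of a difference in response between strains missed the threshold for both (adjusted p 0.0927 for Col7a1 and 0.0834 for Col5a3), and passed it without background correction (0.0278 for Col7a1 and 0.0243 for Col5a3).

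Both chains of type I collagen, the main collagen of fibrous tissue, rose. Col1a1, the alpha 1 chain of type I collagen, had AX5D levels of 10.04 at the lowest, 10.80 at the median and 11.39 at the highest, against 8.87, 9.99 and 10.77 on NAIVE arrays. Its response was 0.81 (SE 0.05, 1.75-fold, adjusted p 7.43e-21), above 0 in 9 of 9 strains and called in 7. With arrays scaled to a common median the C57 call was lost (adjusted p 0.144). Within 129 the AX5D arrays read 10.05, 10.13, 10.15 and 10.15, against 8.87, 9.02, 9.25 and 9.41 on NAIVE arrays, a response of 0.98 (SE 0.16). Within NOD the AX5D arrays read 10.67, 10.80, 10.88 and 10.95, against 10.15, 10.52, 10.63 and 10.77 on NAIVE arrays. That NOD response, 0.31 (SE 0.16, adjusted p 0.171), was the lowest of the 9, the 2 treatments overlapped there, and NAIVE NOD was the strain with the highest naive level of Col1a1.

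Col1a2, the alpha 2 chain of type I collagen, had a mean response of 0.28 (SE 0.08, 1.22-fold, adjusted p 0.00211). On AX5D arrays it lay between 7.51 and 10.001 with a median of 8.78, against 7.17 to 10.17 with a median of 8.35 on NAIVE arrays. It was called in CAST, and with the runs of neighbouring columns described below as a fixed block also in AJ (0.70, adjusted p 0.0113) and DBA (0.61, adjusted p 0.00923). In CAST the AX5D arrays read 9.75, 9.81, 9.96 and 10.001, against 8.14, 9.02, 9.37 and 9.48 on NAIVE arrays (response 0.88, SE 0.24, adjusted p 0.00313). All 4 AX5D arrays of CAST lay above its NAIVE arrays, and without CAST NAIVE replicate 2 the call was lost (0.59, adjusted p 0.0621). In NZO the AX5D arrays read 8.62, 8.90, 9.41 and 9.65, against 9.03, 9.46, 9.46 and 10.17 on NAIVE arrays, a response of -0.39 (SE 0.24, adjusted p 0.257). The F-test across strains gave an adjusted p of 0.141 for Col1a2, and 0.0127 with that block. CAST did not differ from the other 8 strains past the threshold (0.67, SE 0.26, adjusted p 0.105).

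Col3a1 encodes type III collagen, which is laid down with type I collagen in soft connective tissue and in scars. Its levels were 8.17 at the lowest, 9.17 at the median and 10.46 at the highest on AX5D arrays, against 6.54, 8.75 and 9.87 on NAIVE arrays. The mean response was 0.59 (SE 0.11, 1.5-fold, adjusted p 3.00e-06), above 0 in 8 of 9 strains and called in 2. In 129 the AX5D arrays read 8.41, 8.43, 8.51 and 8.88, against 6.54, 7.27, 7.95 and 8.35 on NAIVE arrays (response 1.03, SE 0.32, adjusted p 0.00838). In CAST they read 9.40, 9.81, 10.07 and 10.32, against 8.27, 8.75, 9.06 and 9.46 on NAIVE arrays (response 1.01, SE 0.32, adjusted p 0.0101). The 129 arrays were separated by treatment and the CAST arrays overlapped. The other strains lay between -0.17 in NZO and 0.77 in AJ. The call in 129 was lost without background correction (0.49, adjusted p 0.0617) and without 129 NAIVE replicate 3 (0.70, adjusted p 0.104), and that in CAST without CAST NAIVE replicate 2 (0.81, adjusted p 0.0654). The F-test across strains gave 0.458 for Col3a1, and 0.0279 with the runs as a fixed block. With that block Col3a1 was also called in AJ (1.14, adjusted p 9.99e-06), DBA (0.82, adjusted p 1.84e-04), WSB (0.77, adjusted p 3.26e-04), C57 (0.60, adjusted p 0.00864) and C3H (0.57, adjusted p 0.0104). A second, dimmer Col3a1 probe gave a mean response of 0.42 (SE 0.08).

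**Figure D2:**
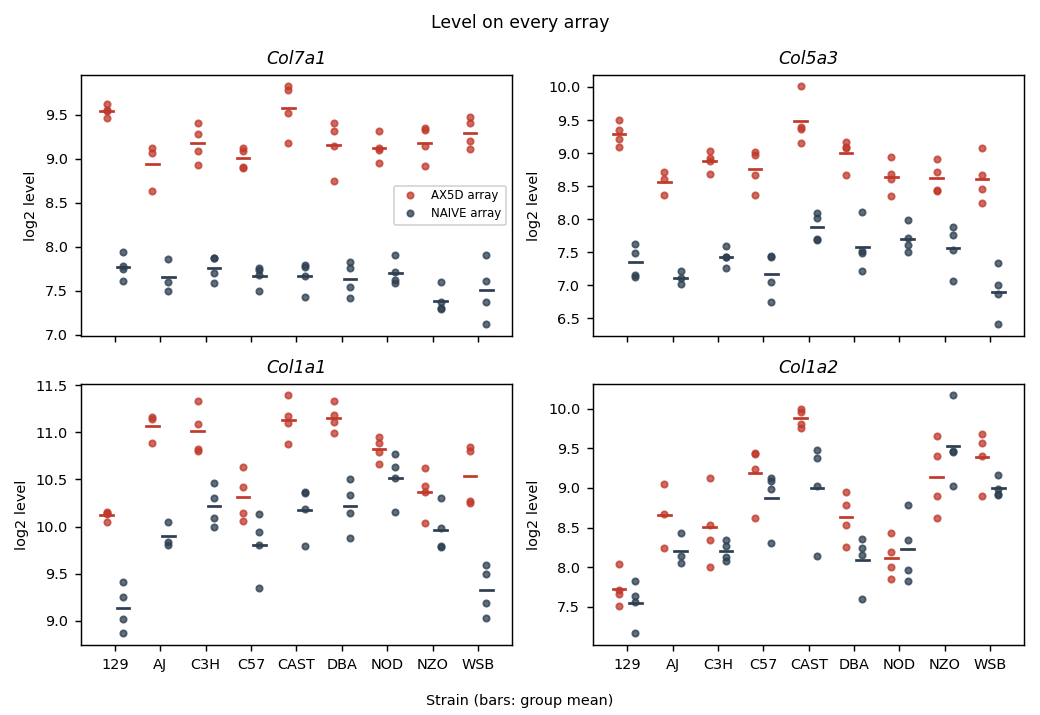
Level of Col7a1, Col5a3, Col1a1 and Col1a2 on every array, in log2 units, by strain, with AX5D arrays to the left of NAIVE arrays and bars for group means. The treatments are apart in every strain for Col7a1 and Col5a3, and overlap in 3 strains for Col1a1; for Col1a2 they are apart in CAST alone.

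The remaining fibrillar collagens fell into 2 sets. Col5a1, the main type V chain, responded by 0.66 (SE 0.04, called in 8 of 9 strains, not in NZO at 0.32). With arrays scaled to a common median its call was lost in C57 (adjusted p 0.147) and NOD (0.438). Col24a1 responded by 0.46 (SE 0.05, called in 7, with AJ at -0.03). Col27a1, a fibrillar collagen best known from cartilage, responded by 0.36 (SE 0.08) and was called only in CAST (0.84). Col5a2, another type V chain, had a mean response of 0.09 (SE 0.14, adjusted p 0.610) and was above background on 22 of 35 AX5D and 21 of 35 NAIVE arrays.

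The chains of types II, IX and XI, which build cartilage fibrils, held no gene that rose, unlike Col27a1 above: Col11a2 and Col9a2 fell, and Col2a1, Col9a1 and Col11a1 did not pass the threshold. Of these chains, Col9a2 alone was above background on every array, and the others were near background. Col11a2 was above background on 12 of 35 AX5D and 19 of 35 NAIVE arrays. For Col2a1 these counts were 21 and 14, for Col9a1 18 and 15, and for Col11a1 2 and 1. Col11a2, a chain of the minor fibrillar collagen of cartilage, fell by 0.25 (SE 0.10, adjusted p 0.0275), with AX5D levels of 5.03 at the lowest, 5.74 at the median and 6.98 at the highest, against 5.13, 6.06 and 7.11 on NAIVE arrays. Col9a2, an alpha chain of type IX collagen on the surface of cartilage fibrils, fell by 0.14 (SE 0.04, adjusted p 0.00224), with AX5D levels from 7.92 to 9.19 against 7.89 to 9.39 on NAIVE arrays. In both genes the treatments overlapped over most of their range. Col9a2 passed the threshold within NZO alone, where AX5D arrays read 8.65, 8.72, 8.75 and 8.88, against 8.98, 9.05, 9.24 and 9.28 on NAIVE arrays (response -0.39, SE 0.12, adjusted p 0.0101). The Col11a2 response was called in no single strain (between -0.55 in 129 and 0.15 in NOD), and its mean call was lost with the runs of neighbouring columns as a fixed block (-0.10, adjusted p 0.399) and without AJ NAIVE replicate 1 (adjusted p 0.0539). Type II collagen, Col2a1, had a response of 0.18 (SE 0.08, adjusted p 0.0542), and its second kept probe gave 0.28 (SE 0.08, adjusted p 0.00312 over all kept probes), so the 2 probes disagreed on the call. The used probe passed with the runs as a fixed block (0.28, adjusted p 0.00321) and with the replicate number as a block (0.19, adjusted p 0.0493). Col11a1 (0.05, SE 0.07) and Col9a1 (-0.04, SE 0.10) did not pass. Markers of cartilage and bone were lower beside them: 6 of 9 measured genes fell and none rose, led by Comp (-1.14, SE 0.07) and Hapln1 (-1.51, SE 0.10). Their summed level ran from 8.86 to 10.39 on AX5D arrays, against 9.53 to 11.22 on NAIVE arrays, and none of the 9 was above background on all arrays. Their part in the fall of Col9a2 and Col11a2 was not tested.

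The 6 type IV genes form 3 pairs in the genome, each pair transcribed in opposite directions from starts that lie close together. Col4a1 and Col4a2, the chains of the basement membrane found in nearly all tissues, rose, and no chain of the other pairs did. Col4a1 had AX5D levels of 11.41 at the lowest, 11.91 at the median and 12.70 at the highest, against 10.96, 11.75 and 12.23 on NAIVE arrays (response 0.26, SE 0.04, adjusted p 2.74e-07). Col4a2 had AX5D levels of 10.47, 10.99 and 11.60, against 10.04, 10.60 and 11.51 on NAIVE arrays (response 0.34, SE 0.05, adjusted p 8.09e-09). Both genes' treatments overlapped over the full set of arrays. The 2 annotated starts lie 21 bases apart on opposite strands of chromosome 8 in GRCm38.p6, and the windows upstream of both held the CCAAT letters. The GGGCGG letters stood in the Col4a2 window and not in the Col4a1 window, so the 2 windows are not the same sequence.

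Col4a3, Col4a4, Col4a5 and Col4a6, the chains of kidney, lung, cochlear and smooth muscle basement membranes, were near background. Col4a3 was above background on 0 of 35 AX5D arrays and on 6 of 35 NAIVE arrays, with AX5D levels from 4.82 to 5.70 and a median of 5.13, against 4.85 to 6.58 and a median of 5.36 on NAIVE arrays. The fit called it lower (adjusted p 3.51e-04), also within WSB and DBA, but the size of the difference was not measured, since the AX5D level is only a bound. Col4a4 lay between 5.09 and 5.91 on AX5D arrays, against 4.91 to 6.204 on NAIVE arrays (response 0.02, SE 0.06). Col4a5 lay between 4.86 and 6.04 on AX5D arrays, against 4.90 to 6.09 on NAIVE arrays (response -0.06, SE 0.07), and Col4a6 between 4.86 and 5.97 on AX5D arrays, against 4.89 to 6.05 on NAIVE arrays (response -0.04, SE 0.07). None of these 3 passed as a mean over strains, and the treatments overlapped over nearly all of their range. The fit called Col4a6 lower in WSB, where no AX5D array was above background.

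Outside these classes, collagens of several kinds rose. Col18a1 and Col15a1 are multiplexins, collagens with heparan or chondroitin sulfate chains that lie in basement membrane zones of vessels and nerve. Col18a1 lay between 10.48 and 12.27 on AX5D arrays (median 11.33), against 9.82 to 11.07 (median 10.57) on NAIVE arrays, a response of 0.77 (SE 0.04, adjusted p 6.78e-28) called in all 9 strains. With arrays scaled to a common median the Col18a1 call was lost in AJ (adjusted p 0.0563), C57 (0.488), NOD (0.0522) and NZO (0.0630), and in C57 it was lost with no filter on low values (0.0515). Col15a1 lay between 9.88 and 11.24 on AX5D arrays (median 10.36), against 9.11 to 10.47 (median 9.75) on NAIVE arrays. Its response was 0.71 (SE 0.05, adjusted p 2.49e-21) and was called in 8 strains. Median scaling lost the Col15a1 call in C57 (adjusted p 0.312), CAST (0.189) and NZO (0.101). Col26a1, a small collagen with an EMI domain, responded by 0.85 (SE 0.06, adjusted p 5.36e-21), with AX5D levels from 8.0 to 9.82 (median 8.90) against 7.08 to 8.91 (median 8.01) on NAIVE arrays. Col16a1 and Col14a1 belong to the FACIT collagens, which sit on fibril surfaces. Col16a1 responded by 0.57 (SE 0.03, called in 8 strains). Median scaling lost its call in 129 (adjusted p 0.125), AJ (0.494), CAST (0.0515) and NZO (0.381). Col14a1 responded by 0.34 (SE 0.09, called in no single strain, above background on 30 of 35 AX5D and 20 of 35 NAIVE arrays).

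The 2 measured chains of type VI collagen, which forms beaded filaments around cells and in the endoneurium, both rose. Col6a1 responded by 0.56 (SE 0.06, called in 7 strains), and its second probe by 0.43 (SE 0.06). Median scaling lost the Col6a1 call in AJ (adjusted p 0.151), C57 (0.173), CAST (0.324), DBA (0.0796) and NZO (0.255). Col6a2 responded by 0.35 (SE 0.07, called in 129 at 0.87 and WSB at 0.94). Col28a1, which is found at Schwann cell basement membranes and nodes, responded by 0.29 (SE 0.04, above 0 in 9 strains, called in 4). The transmembrane collagens did not pass as means: Col17a1 of hemidesmosomes 0.06 (SE 0.07), Col23a1 -0.08 (SE 0.06) and Col25a1, a neuronal collagen, -0.02 (SE 0.08, called higher in CAST alone, where none of the NAIVE arrays was above background and the size was not measured). Col23a1 was called lower with the runs of neighbouring columns as a fixed block (-0.16, adjusted p 0.00383). The short-chain collagen Col8a2 had a response of -0.02 (SE 0.08). Col8a2 was above background on 10 AX5D and 8 NAIVE arrays, Col17a1 on 2 and 1, and Col25a1 on 16 and 15.

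The deposited table falls into 9 runs of 8 neighbouring columns, a feature of column order that no label explains and that was noticed in the data. Each run holds both treatments, in uneven numbers: run 9 has 1 AX5D and 7 NAIVE arrays, and run 2 has 2 and 6. Within runs, Col7a1 was higher in AX5D by 1.18 to 1.77 and Col5a3 by 1.16 to 1.60, in 9 of 9 runs. Col1a1 (0.45 to 0.94), Col3a1 (0.33 to 1.05), Col4a1 (0.10 to 0.40), Col4a2 (0.18 to 0.53), Col15a1 (0.55 to 0.73), Col18a1 (0.58 to 0.98) and Col26a1 (0.67 to 1.03) were also higher in 9 of 9. Col9a2 was lower in 8 of 9 runs, Col4a3 in 8 and Col11a2 in 6. Each strain's mean over its arrays of both treatments was taken out before these differences were formed. Runs hold different strains in different numbers, so the ranges still carry differences in response between strains.

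Counted strain by strain, 99 of 288 pairs of a collagen gene and a strain were called higher after axotomy and 4 lower. Among all pairs of a gene and a strain, 14.6% were lower. By strain, the share of all genes called higher ran from 10.3% in AJ to 18.4% in WSB. The 4 lower collagen pairs were Col9a2 in NZO and, each with no AX5D array of that strain above background, Col4a3 in DBA and WSB and Col4a6 in WSB. CAST had the most genes called higher, 17 of 32 (14.4% of all genes), followed by 14 in 129 (15.0%), 14 in WSB (18.4%), 12 in C3H (12.8%) and 12 in DBA (16.5%). There were 9 in AJ (10.3%), 8 in C57 (10.8%), 7 in NZO (14.4%) and 6 in NOD (11.7%). AJ has 3 arrays per group and so less precision. These counts are not tests of a difference between strains, and their order turns with the scaling: with median scaling 11 collagen genes changed in either direction in CAST, 12 in DBA and 15 in WSB. The C57 count fell to between 3 and 5 when any of 5 C57 arrays was left out (AX5D replicates 1 and 3 and NAIVE replicates 1, 3 and 4). By sign alone, 10 of 32 genes had a response above 0 in every strain, against 15.8% of all genes. Col7a1, Col5a3 and Col18a1, 3 of 32, were called higher in every strain, against 4.60% of all genes.

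**Figure D3:**
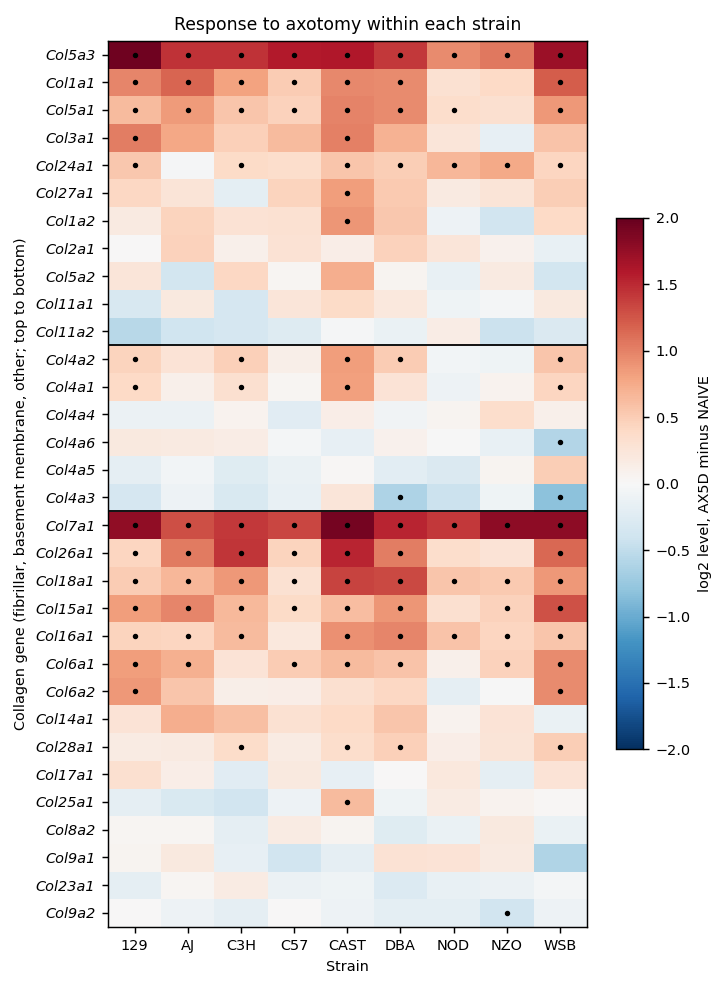
Response of each collagen gene in each strain, as log2 level in AX5D minus NAIVE on a colour scale from -2 to 2, with dots for adjusted p under 0.05; genes run from high to low mean response within fibrillar, basement membrane and other collagens. Col5a3 and Col7a1 are dotted in every column, the dots of Col4a3, Col4a6 and Col25a1 stand where a treatment was below background, and the type IV pair is darkest in CAST.

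The response itself differed between strains for 9 of 32 collagen genes by the F-test, against 16.2% of all genes. The genes were Col18a1 (adjusted p 8.81e-08), Col26a1 (5.71e-06), Col16a1 (4.46e-04), Col15a1 (0.00159), Col4a1 (0.00174), Col4a2 (0.00297), Col1a1 (0.00650), Col5a1 (0.0105) and Col6a2 (0.0404). Setting each strain against the mean of the other 8 called 12 pairs of a gene and a strain, against 3.12% of all pairs. Of the 12, 5 were in CAST, 2 each in DBA and C57, and 1 each in C3H, NZO and WSB. The share of all genes was not counted for each strain alone.

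These strain differences are the results most exposed to the normalisation. When arrays were scaled to a common median in place of quantile normalisation, 4 of the 9 F-tests remained past the threshold (Col18a1, Col26a1, Col15a1 and Col6a2), and 2 of the 12 pairs, Col26a1 in CAST and Col15a1 in WSB. That scaling also moved the median response of all genes in CAST to -0.23, against -0.03 with quantile normalisation.

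Col18a1 differed most clearly. In CAST its AX5D arrays read 11.91, 12.01, 12.26 and 12.27, against 10.65, 10.72, 10.78 and 10.88 on NAIVE arrays, a response of 1.36 (SE 0.11, 2.56-fold). In DBA the AX5D arrays read 11.58, 11.90, 11.90 and 11.97, against 10.32, 10.51, 10.54 and 10.70 on NAIVE arrays, a response of 1.32 (SE 0.11). In C57 the AX5D arrays read 10.71, 10.82, 10.83 and 10.90, against 10.42, 10.52, 10.56 and 10.57 on NAIVE arrays, a response of 0.30 (SE 0.11). The treatments were apart in all 3 strains, by much less in C57. Against the other 8 strains the response was higher by 0.66 in CAST (SE 0.12, adjusted p 2.86e-05) and by 0.62 in DBA (SE 0.12, adjusted p 3.66e-04), and it differed by -0.53 in C57 (SE 0.12, adjusted p 0.00394). With median scaling these became 0.36 (adjusted p 0.179), 0.62 (adjusted p 0.0795) and -0.53 (adjusted p 0.310).

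Col26a1 responded most in CAST and C3H and least in NZO. In CAST its AX5D arrays read 8.51, 8.90, 9.09 and 9.12, against 7.08, 7.27, 7.50 and 7.70 on NAIVE arrays, a response of 1.52 (SE 0.17, 2.87-fold) that exceeded the other 8 strains by 0.75 (SE 0.18, adjusted p 0.00230). In NZO the AX5D arrays read 8.47, 8.84, 8.96 and 9.10, against 8.33, 8.64, 8.66 and 8.66 on NAIVE arrays, a response of 0.27 (SE 0.17) that differed from the others by -0.65 (SE 0.18, adjusted p 0.0257). The C3H response of 1.43 exceeded the others by 0.65 (SE 0.18, adjusted p 0.0462). CAST had the lowest naive mean level of this gene (7.38) and NZO one of the highest (8.57), while AX5D means were closer, 8.90 in CAST and 8.84 in NZO. The NZO call was lost without any of 5 arrays, up to an adjusted p of 0.163 without NZO AX5D replicate 1. The C3H call was lost without any of 37 arrays, up to 0.318 without C3H AX5D replicate 2.

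Col16a1, like Col18a1, was called different in DBA, CAST and C57. Its DBA arrays read 12.97, 13.23, 13.28 and 13.29 in AX5D, against 12.19, 12.21, 12.22 and 12.25 in NAIVE, a response of 0.97 (SE 0.10). The CAST response was 0.92 (SE 0.10) and the C57 response 0.21 (SE 0.10, adjusted p 0.138). Against the other 8 strains these were 0.45 in DBA (adjusted p 0.00857), 0.39 in CAST (adjusted p 0.0119) and -0.41 in C57 (adjusted p 0.0361). With median scaling the CAST difference turned to -0.03 (adjusted p 0.935), and its call was lost without any of 3 arrays, up to an adjusted p of 0.141 without CAST AX5D replicate 3 (0.28). The C57 call was lost without any of 6 arrays, up to 0.207 without C57 AX5D replicate 4. Col15a1 was the WSB case: AX5D arrays there read 10.61, 10.65, 10.85 and 10.93, against 9.41, 9.49, 9.50 and 9.56 on NAIVE arrays, a response of 1.27 (SE 0.14, 2.41-fold) that exceeded the others by 0.63 (SE 0.15, adjusted p 0.00265). Without WSB, the F-test of Col15a1 over the other strains gave an adjusted p of 0.107.

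The type IV pair differed in CAST. Col4a1 arrays of CAST read 12.33, 12.38, 12.63 and 12.70 in AX5D, against 11.64, 11.65, 11.72 and 11.75 in NAIVE, a response of 0.82 (SE 0.12, 1.76-fold) that exceeded the other 8 strains by 0.63 (SE 0.13, adjusted p 4.81e-04). Col4a2 arrays of CAST read 10.98, 11.06, 11.18 and 11.59 in AX5D, against 10.25, 10.27, 10.46 and 10.47 in NAIVE, a response of 0.84 (SE 0.14, 1.79-fold) that exceeded the others by 0.56 (SE 0.15, adjusted p 0.01). In both genes the CAST treatments were apart. NOD had a response of -0.11 (SE 0.12) for Col4a1 and -0.05 (SE 0.14) for Col4a2, and NZO one of 0.06 (SE 0.12) for Col4a1 and -0.09 (SE 0.14) for Col4a2. Without CAST the F-test of Col4a1 gave an adjusted p of 0.191. With median scaling the CAST excess was 0.21 for Col4a1 (adjusted p 0.546) and 0.29 for Col4a2 (adjusted p 0.294), and the Col4a2 excess was lost without CAST AX5D replicate 3 (0.43, adjusted p 0.0987). Markers of endothelium and pericytes, cells rich in type IV collagen, had a summed level higher by 0.27 in AX5D than NAIVE in CAST, the highest of the 9 strains, with C3H lowest at -0.28. Of 12 measured markers, 2 rose and 2 fell as means over strains, and their part in the CAST response was not tested.

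**Figure D4:**
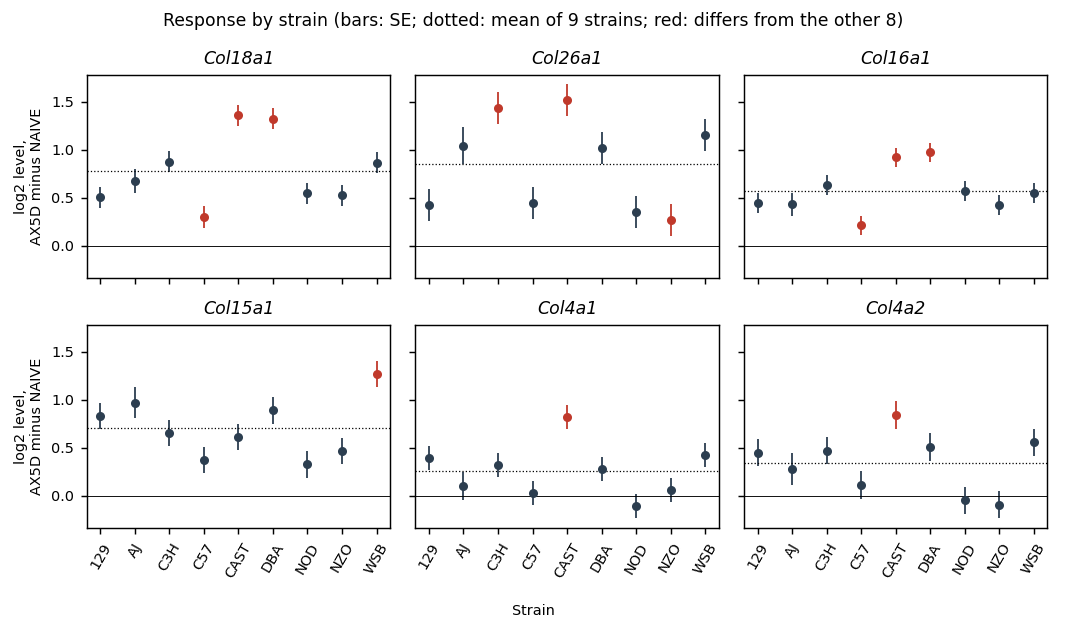
Response of 6 collagen genes by strain, as log2 level in AX5D minus NAIVE with bars for the SE, a dotted line for the mean of 9 strains and red points for strains that differed from the other 8. CAST is red in 5 panels and WSB in the Col15a1 panel.

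Naive levels differed between strains for 21 of the 32 collagen genes, against 59.4% of all genes, a similar share. Set against the mean of the other 8, 72 pairs of a collagen gene and a strain differed, against 20.9% of all pairs. The lowest p came from Col28a1 (adjusted p 1.11e-19), whose naive mean was 10.12 in C3H and 8.89 in DBA. In C3H its NAIVE arrays read 9.84, 10.15, 10.15 and 10.36, and in DBA 8.75, 8.81, 8.92 and 9.07, with no overlap. Col28a1 rose after axotomy in both strains. Col23a1 (adjusted p 2.53e-12) had naive means of 9.52 in NZO and 8.10 in WSB, and Col1a1 (3.12e-11) of 10.52 in NOD and 9.14 in 129. Col9a2 (3.12e-10) had 9.18 in AJ and 8.14 in CAST. Col1a2 (7.64e-10) spanned the most, with 9.53 in NZO and 7.55 in 129. On single arrays that was 9.03, 9.46, 9.46 and 10.17 in NZO, against 7.17, 7.57, 7.64 and 7.83 in 129. Each value rests on 1 probe, read across the 9 genomes.

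Strain 129 had lower naive levels of 4 of the 11 fibrillar collagens and of both type VI chains. Against the mean of the other 8 strains, 10 genes were lower and 2 higher in 129, with Col3a1 at -1.27, Col1a2 at -1.09, Col6a1 at -0.94, Col1a1 at -0.88, Col6a2 at -0.69 and Col5a1 at -0.43. Col4a1 (-0.55), Col15a1 (-0.53), Col4a2 (-0.40) and Col18a1 (-0.24) were also lower in 129, while Col28a1 (0.40) and Col23a1 (0.37) were higher. The summed level of the 11 fibroblast markers in naive 129 was 15.50, within the range of the other strains, 15.18 in WSB to 15.74 in DBA. That sum is weighted towards its brightest members, Dcn (NAIVE median 14.32) and Fstl1 (14.07). The part of fibroblasts in the lower 129 levels was not tested. CAST differed in 17 genes, 9 higher and 8 lower, among them Col5a2 at 1.10, Col1a2 at 0.54, Col5a3 at 0.53, Col9a2 at -0.79 and Col26a1 at -0.75. NOD was higher in 7 and lower in 3, with Col1a1 at 0.67, Col6a1 at 0.54 and Col23a1 at -0.40. WSB was higher in 3 and lower in 7, with Col1a2 at 0.54, Col23a1 at -0.95 and Col18a1 at -0.70. NZO had Col1a2 at 1.13 and Col6a1 at -0.49, each past the threshold. Without strain 129, the F-test of naive Col3a1 gave an adjusted p of 0.189. The shares of all genes that differed in each single strain were not counted, so these counts by strain do not set collagens apart.

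**Figure D5:**
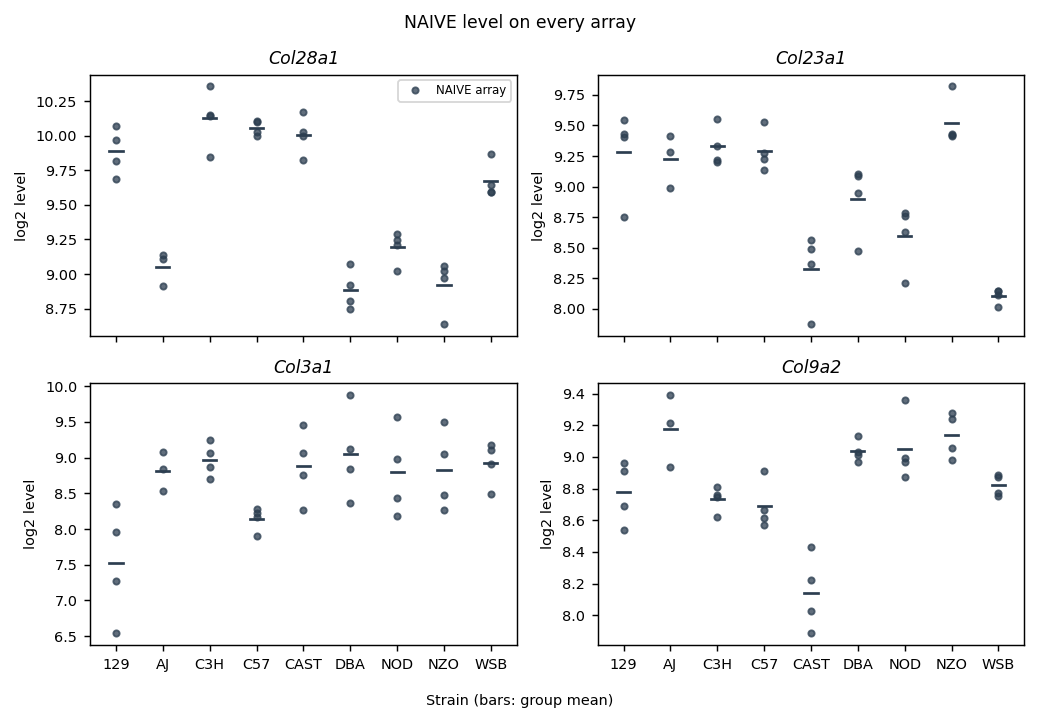
NAIVE level of Col28a1, Col23a1, Col3a1 and Col9a2 on every array, in log2 units, by strain, with bars for group means. The Col28a1 arrays of DBA, at most 9.07, lie below those of C3H, at least 9.84, and Col3a1 is lowest in 129.

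Chains of the same molecule were compared within groups, after taking out each group's mean, over 70 arrays. Col6a1 and Col6a2 varied together (Pearson r 0.74, Spearman rho 0.70), as did Col4a1 and Col4a2 (r 0.62, rho 0.67). Leaving out the 2 arrays farthest from the median of the first gene gave 0.71 and 0.59, and taking out the runs gave 0.69 and 0.66. Col1a1 and Col1a2 did not show this (r 0.17, rho 0.20, r within runs 0.30), nor did Col5a1 and Col5a3 (r 0.16, rho 0.07, r within runs 0.21). Permutation within groups gave adjusted p-values over the 4 pairs of 4e-05 for both correlated pairs by Pearson's r and 2e-05 by Spearman's rho, 0.305 for both other pairs by Pearson's r, and 0.209 (type I) and 0.650 (type V) by Spearman's rho. The arrays share preparation and normalisation, and over all 153 pairs of the 18 collagen genes above background on every array the median r was 0.19, with 112 above 0.

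Enzymes and partners of collagens were followed in 6 lists of 65 measured genes in all, of which 39 rose, 5 fell and 21 did not pass, against 28.1% higher and 33.6% lower among all genes tested. Of 19 genes whose products modify, fold, export or cross-link the chains 8 rose and 2 fell, with a median response of 0.12. Plod3, a lysyl hydroxylase and glycosyltransferase of procollagen, responded by 0.68 (SE 0.03), Tgm2, a transglutaminase that cross-links matrix proteins, by 0.76 (SE 0.05), and P4hb, the beta subunit of prolyl 4-hydroxylase, by 0.29 (SE 0.03). Colgalt2, a collagen galactosyltransferase, fell by 0.51 (SE 0.04), and P4ha1, the main catalytic prolyl hydroxylase subunit, by 0.16. Outside the cell, 4 of 7 processing and cross-linking genes rose and none fell. Bmp1, the protease that removes procollagen C-propeptides, had AX5D levels of 10.05 at the lowest, 10.88 at the median and 11.48 at the highest, against 9.13, 9.55 and 9.998 on NAIVE arrays, a response of 1.27 (SE 0.04, adjusted p 2.42e-36). Its enhancer Pcolce responded by 1.06 (SE 0.07) and the lysyl oxidase Loxl2 by 1.96 (SE 0.09), Loxl2 being above background on 35 of 35 AX5D and 9 of 35 NAIVE arrays. Lox itself had a response of 0.11 (SE 0.07, adjusted p 0.205).

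Collagen-degrading enzymes and their inhibitors rose in 7 of 11 cases and fell in 2 (median response 0.38). Mmp16, a membrane-bound metalloproteinase, had AX5D levels from 10.27 to 11.68 (median 10.81), against 6.70 to 8.09 (median 7.58) on NAIVE arrays, a response of 3.31 (SE 0.06, 9.94-fold). Timp1, a secreted inhibitor of metalloproteinases, lay between 9.22 and 11.74 on AX5D arrays (median 10.23), against 5.95 to 8.25 (median 7.15) on NAIVE arrays, a response of 3.21 (SE 0.08, 9.28-fold). The gelatinase Mmp2 responded by 1.13 (SE 0.04), while the inhibitors Timp2 (-0.24, SE 0.02) and Timp4 (-0.24, SE 0.07) fell, Timp4 being above background on 1 AX5D and 4 NAIVE arrays. The treatments were apart on all arrays for Mmp16 and Timp1.

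Among collagen receptors, 3 of 7 rose and 1 fell. Itgb1, the beta 1 integrin subunit shared by the collagen-binding integrins, responded by 0.99 (SE 0.07), and Itga11, an alpha subunit of fibroblasts, fell by 0.60 (SE 0.05). Ddr2, a receptor tyrosine kinase for fibrillar collagen, and Itga2 were called higher, but were above background on 5 and 7 of the AX5D arrays and on 0 of 35 NAIVE arrays, which leaves their difference unmeasured. Of 9 fibril-binding proteins 8 rose and none fell (median response 0.33), with the small proteoglycans Lum at 1.03 (SE 0.05) and Bgn at 0.51 (SE 0.04) and the matricellular Thbs2 at 1.00 (SE 0.08). Of 12 laminins, nidogens and proteoglycans of basement membranes 9 rose and none fell (median response 0.18). Nid2 responded by 0.50 (SE 0.04) and Lamc1 by 0.35 (SE 0.04). Lamb3, a chain of the laminin to which anchoring fibrils of type VII collagen attach, was above background on 35 of 35 AX5D and 0 of 35 NAIVE arrays, at least 3.70-fold higher (adjusted p 9.34e-46), a bound set by the dimmest signals above background. Its AX5D levels ran from 6.29 to 10.25 with a median of 7.70, against 4.89 to 5.71 with a median of 5.15 on NAIVE arrays.

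Markers of the cells that a ganglion holds moved in the same arrays, with lists and collagens sharing no gene. Their counts stand against the same 28.1% higher and 33.6% lower of all genes. All 8 measured macrophage markers rose, led by C1qc (2.84, SE 0.06) and C1qb (2.82, SE 0.06), and their summed level ran from 12.86 to 14.61 on AX5D arrays, against 10.43 to 12.19 on NAIVE arrays. By strain the summed macrophage level was higher in AX5D by 1.71 in NZO and 1.78 in NOD at the low end and by 3.28 in WSB at the high end. Perineurial and meningeal markers rose in 8 of 9 cases, among them Slc2a1 (0.97, SE 0.03), with a summed level of 12.85 to 14.01 on AX5D arrays, against 12.34 to 13.74 on NAIVE arrays. Krt19 and Slc22a6, both among those 8, were above background on 9 and 4 AX5D arrays and on 0 NAIVE arrays. They passed the filter through AX5D arrays only, which leaves the size of their difference unmeasured. Fibroblast markers were mixed, with 6 of 11 higher and 2 lower, Lum at 1.03 and Fstl1 at -0.53 (SE 0.03), and summed levels of 14.86 to 15.87 on AX5D arrays, against 15.06 to 15.79 on NAIVE arrays. Lum and Dcn are on the list of fibril-binding proteins too.

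Of 7 Schwann cell markers 2 rose and 3 fell, shares near those of all genes. Ngfr (-0.20, SE 0.03) and Scn7a (-0.28, SE 0.06) were among the lower, and Mag (0.17) and Egr2 (0.17) were the higher, with summed levels of 15.88 to 16.39 on AX5D and 15.90 to 16.42 on NAIVE arrays. Satellite glia had 1 higher of 6, Glul (0.26), and 2 lower, Cadm1 (-0.47, SE 0.03) and Gja1 (-0.17, SE 0.03), and summed levels of 14.75 to 15.28 on AX5D and 14.82 to 15.35 on NAIVE arrays. Sensory neuron markers, the labelled tissue's own, summed to 16.65 to 16.95 on AX5D and 16.73 to 17.21 on NAIVE arrays, with 6 of 9 lower, among them Rbfox3 (-0.48, SE 0.02) and Isl1 (-0.30, SE 0.03), and 2 higher, Uchl1 (0.12) and Tubb3 (0.35). Of 12 endothelial and pericyte markers Vwf (0.44, SE 0.06) and Abcc9 (0.31, SE 0.08) rose, Rgs5 (-0.22) and Flt1 (-0.09) fell and 8 did not pass. They summed to 11.56 to 12.63 on AX5D and 11.46 to 12.45 on NAIVE arrays. None of 9 skeletal muscle and 3 adipocyte markers passed the test, among them Tnnt3 (-0.27, SE 0.23) and Mylpf (-0.36, SE 0.33) of muscle and Lep (-0.09) and Cidec (0.09) of fat. Muscle markers nonetheless varied widely between arrays, from 8.91 to 14.30 in AX5D and from 8.96 to 14.83 in NAIVE, and adipocyte markers from 6.64 to 9.03 in AX5D and from 6.74 to 9.82 in NAIVE. No listed marker with a kept probe could be below background on every array, since the filter asked for at least 3 arrays above it. The part of any of these cells in the collagen responses was not tested.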

How the data were processed

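RNA of pooled mouse DRGs was measured on Illumina arrays. The authors deposited a table of non-normalized probe intensities and, per the file headers, a detection p-value for each probe and array. The authors also deposited log2 values, which equal their quantile-normalised intensities to within 5e-09. No label or header used here names the array software.

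Of 72 deposited arrays, 2 from AJ match none of the labelled samples and stayed out. The neqc function of limma 3.58.1 (R 4.3.3) removed background by way of the detection p-values (offset 16), applied quantile normalisation and took log2. Probes with a detection p-value under 0.05 on at least 3 arrays were kept (17616), and the brightest named probe stood for each gene. Platform symbols, updated by Entrez ID, name 23978 probes with 1 symbol, 0 with several and 1719 with none. limma fitted 18 group means with a trended variance prior (52 residual degrees of freedom), and Benjamini-Hochberg adjustment ran over 11815 genes for each contrast. F-tests had 8 degrees of freedom. A level at a detection p-value of 0.05 or more is not above background, and a gene below it on all arrays of a treatment has only a bound there. Summed levels are log2 of the sum of unlogged levels. Correlations of chains used 100000 permutations within groups, whose smallest unadjusted p-value is 1e-05. The fit was tested on simulated data.

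Every collagen gene with a kept probe was named. Values by strain or array went to the top 4 and bottom 4 genes by mean response past the threshold, the 5 with the smallest p-value in each F-test, and every type I, III and IV chain. Pathway lists gave up to 3 genes per direction by adjusted p-value, and cell lists up to 2. Lox and the opposing markers of a cell list, outside that rule, were picked with their values in view. The collagen genes and all lists were chosen with earlier results of these data known. Precision is limited by the number of arrays in a group. Alternatives covered background correction, normalisation, filters, probe choice, array weights, replicate numbers, column runs, each strain and each array. Whether the replicate numbers pair the arrays cannot be settled with at most 4 arrays in a group. Over 34 pairs of same-numbered arrays of a strain the deviations correlated between -0.19 and 0.39 (median 0.03), with 11 over 0.1. Arrays of other numbers gave -0.40 to 0.31 (median -3e-04).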

Additional observations from a re-analysis of the deposited data

Results flagged for a closer look

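In groups of 4, Dixon's test set 1 array apart in 9 of 224 checks (14 genes in 16 groups), where chance gives about 1 in 20. Col18a1 was 11.58 on DBA AX5D replicate 4, against 11.90 to 11.97 on the other DBA AX5D arrays. Col4a1 was 12.28 on C3H AX5D replicate 2, against 11.78 to 11.85, and without that array its C3H response was 0.20 (adjusted p 0.297). Col4a2 was 10.75 on C57 AX5D replicate 3, against 10.47 to 10.51. Col5a1 was 9.71 on 129 AX5D replicate 4, against 10.02 to 10.08, and 9.30 on WSB NAIVE replicate 2, against 9.56 to 9.59. Col6a2 was 7.03 on NZO AX5D replicate 1, against 7.75 to 7.87. Col26a1 was 8.33 on NZO NAIVE replicate 4, against 8.64 to 8.66. Col1a2 was 8.31 on C57 NAIVE replicate 3, against 8.99 to 9.13. Col6a1 was 11.32 on WSB AX5D replicate 1, against 11.60 to 11.65.

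The response differed between strains by the F-test for 9 collagen genes. The adjusted p-values were 8.81e-08 for Col18a1, 5.71e-06 for Col26a1, 4.46e-04 for Col16a1, 0.00159 for Col15a1, 0.00174 for Col4a1, 0.00297 for Col4a2, 0.00650 for Col1a1, 0.0105 for Col5a1 and 0.0404 for Col6a2. Col6a2 was the least stable of them, lost without any of 16 arrays, up to 0.0772 without WSB NAIVE replicate 4.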

How the results depend on the processing

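The 18 collagen genes higher and 3 lower as a mean over strains stood at 18 or 19 higher under every alternative run. Without background correction, or on the authors' deposited log2 values, the median collagen response was 0.14 in place of 0.28. Median scaling changed most: F-tests called 4 genes and not 9, differences from the other 8 strains 2 pairs and not 12, and responses 2 genes in C57, 11 in CAST and 4 in NZO, while Col16a1 in CAST minus the others turned to -0.0345 (adjusted p 0.935). Without strain CAST, 7 pairs were called in all, with Col26a1 in NZO lost (-0.57, adjusted p 0.0732). The cause was not tested, but median scaling moved the median response of all genes in CAST by -0.20. Within strains, median scaling called 72 pairs of a collagen gene and a strain changed, against 103 with quantile normalisation. Leaving out single arrays gave 20 to 22 genes as means, 97 to 106 pairs within strains, 8 to 10 and 20 to 22 genes by the F-tests of response and naive level, 10 to 13 response pairs, 67 to 78 naive pairs and 42 to 45 pathway genes. In C57 the count ran from 3 to 9. With the replicate number as a block, over all strains or within strain, 22 collagen genes were called in place of 21, the addition being Col2a1 (adjusted p 0.0493 and 0.0499). Of single-gene results over 91 alternatives, 29 of 32 mean responses, 45 of 64 F-tests, 81 of 126 responses in a strain and 2 of 12 differences from the other strains kept their call. Signal near background limits 14 of the 32 genes.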
